A study of Mus musculus with 12 samples.

Results

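The Fanconi anemia pathway genes are 10 genes of one DNA repair pathway, *Fancd2*, *Fanci*, *Fanca*, *Fancb*, *Fancc*, *Fance*, *Fancf*, *Fancg*, *Fancl* and *Fancm*. They were taken by gene symbol from a table of 55304 genes measured in sorted mouse corticotrophs, and all 10 were found. The set was picked because *Fancd2* was high during dexamethasone (DEX) treatment, so it was chosen by the DEX and control values of *Fancd2*, and everything below on *Fancd2* in those libraries is a description with no test. The 9 other genes were taken for their place in the pathway.

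Male *Pomc*-eGFP mice on a C57Bl6/J background, 8 weeks old when they entered the study, carried enhanced green fluorescent protein (eGFP) under the *Pomc* promoter in every group, controls included. Control mice drank standard water. DEX mice drank water with 2.5 µg/ml of DEX, a synthetic glucocorticoid, for 4 weeks and were collected at its end. The other groups had the same 4 weeks of DEX and then 7 or 28 days of standard water, called 1 week and 4 weeks after withdrawal. Before DEX, the DEX group had standard water for 4 weeks and the 1 week group for 3 weeks. All groups were collected at the end of the same 8 weeks. Age at collection was thus shared, whereas age at DEX exposure differed between the groups. Each group had 3 libraries, and each library was the RNA of eGFP+ anterior pituitary cells pooled from 2 to 3 mice of one cage, so a pool is the replicate and a cage cannot be told apart from a pool. The marker is driven by *Pomc*, the precursor gene of ACTH, which itself was low under DEX (4241 to 8521 normalised counts in the DEX pools against 34562 to 74260 in the control pools). Whether the gated cells were the same mixture in the DEX and control groups was not tested.

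The 12 libraries held 7719894 to 12848078 reads on genes, and 1 read was worth 0.0787 to 0.127 normalised counts. The normalised count is the value deposited for each gene, reads scaled to library size by the authors (CPM of the effective library size). The corticotroph markers *Pomc*, *Tbx19*, *Crhr1*, *Avpr1b* and *Neurod1* were detected in all 12 libraries, but they did not move together under DEX. *Pomc*, nearly all of their summed level, was low in the DEX pools. *Tbx19* (218 to 459 in control, 498 to 1490 in DEX) and *Avpr1b* (12.1 to 60.03 in control, 67.9 to 130.1 in DEX) had every DEX pool above every control pool, and *Crhr1* and *Neurod1* overlapped. Markers of other hormone cells summed to 113884 to 308510 in control pools and 117281 to 175731 in DEX pools, led by *Gh* and *Prl*, so the sorted material was not pure. In pooled cells, fewer cells of a type and less RNA per cell cannot be told apart.

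The Fanconi anemia pathway repairs interstrand cross-links, lesions that tie both DNA strands together and block replication forks. FANCM recognises the stalled fork and anchors the core complex (FANCA, FANCB, FANCC, FANCE, FANCF, FANCG and FANCL), whose ubiquitin ligase subunit FANCL marks the FANCD2 and FANCI pair with ubiquitin. The marked pair then recruits nucleases and recombination factors. The pathway works mainly in S phase and is best known from bone marrow failure and cancer risk in patients who lack it. Most adult corticotrophs do not divide.

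Promoter sequence was read for the genes that have a window in RefSeq (GRCm38.p6, 250 bases before to 50 bases after the start). A window was found for 9 of the 10 genes, *Fancd2* being the exception. The windows below are the 250 bases before the RefSeq start of *Fanca* and *Fancc*, core complex genes whose windows contain no annotated exon base, and of *Fancd2os*, the gene that overlaps the end of *Fancd2* on the opposite strand. They are printed 5′ to 3′ along the gene's own strand, and capitals mark CCAAT or its reverse complement ATTGG. The *Fanca* window lies at chr8:123318577-123318826 (minus strand), the *Fancc* window at chr13:63431746-63431995 (minus strand) and the *Fancd2os* window at chr6:113600716-113600965 (minus strand). The *Fancc* window lies inside the span that GENCODE M21 gives that gene (chr13:63285043-63497278), so its RefSeq start is not the outermost annotated start.
Fanca: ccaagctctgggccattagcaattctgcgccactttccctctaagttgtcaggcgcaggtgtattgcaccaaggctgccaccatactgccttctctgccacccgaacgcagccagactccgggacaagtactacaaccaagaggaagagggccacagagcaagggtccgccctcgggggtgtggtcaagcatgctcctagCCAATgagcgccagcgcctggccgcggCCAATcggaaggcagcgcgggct
Fancc: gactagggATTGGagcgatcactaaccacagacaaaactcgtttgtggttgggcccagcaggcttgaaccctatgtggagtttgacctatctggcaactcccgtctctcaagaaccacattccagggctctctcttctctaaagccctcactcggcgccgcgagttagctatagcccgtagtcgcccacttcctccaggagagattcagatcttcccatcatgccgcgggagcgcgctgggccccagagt
Fancd2os: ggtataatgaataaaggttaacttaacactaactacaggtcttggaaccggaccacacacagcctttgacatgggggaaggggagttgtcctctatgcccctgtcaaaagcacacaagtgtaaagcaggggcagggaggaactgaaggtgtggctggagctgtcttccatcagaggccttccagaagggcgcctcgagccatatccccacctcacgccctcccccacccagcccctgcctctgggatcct

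In *Fanca* the CCAAT letters began 50 and 23 bases before the start, and in *Fancc* 242 bases before it. The CCAAT box, bound by the factor NF-Y, is a common element of promoters of replication and cell cycle genes. On both strands of the 300-base windows it was present in 6 of the 9 genes (*Fanca*, *Fancb*, *Fancc*, *Fance*, *Fancf* and *Fancm*) and in 37.4% of all 32851 windows. The E2F letters TTTGGCGC or TTTCGCGC were in 0 of the 9 and in 0.813% of all windows. The cell cycle homology letters TTTGAA were in 0 of the 9 and in 17.9% of all windows. The letters AGAACA, the repeat unit of the glucocorticoid receptor's binding site, was found in 1 of the 9, in *Fancl* 234 bases before the start, and in 19.0% of all windows. The full palindrome, AGAACA and its reverse complement with 3 bases between them, was in 0 of the 9 and in 0.00913% of all windows. These are matches of letters and are not shown to be bound.

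*Fancd2* (ENSMUSG00000034023), the protein that the core complex marks, stood apart from the other genes under DEX. Its normalised counts were 1.34, 0.589 and 1.96 in the control pools and 15.4, 8.83 and 29.2 in the DEX pools. One week after withdrawal they were 4.56, 2.29 and 1.45, and at 4 weeks 0.924, 2.30 and 1.08. Every DEX pool lay above every pool of the other groups, and the lowest DEX pool was 1.9 times the highest other pool. Behind these values were 5 to 18 reads per control pool, 108 to 260 per DEX pool, 13 to 48 at 1 week and 10 to 21 at 4 weeks, so the low values rest on few reads.

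**Figure D1:**
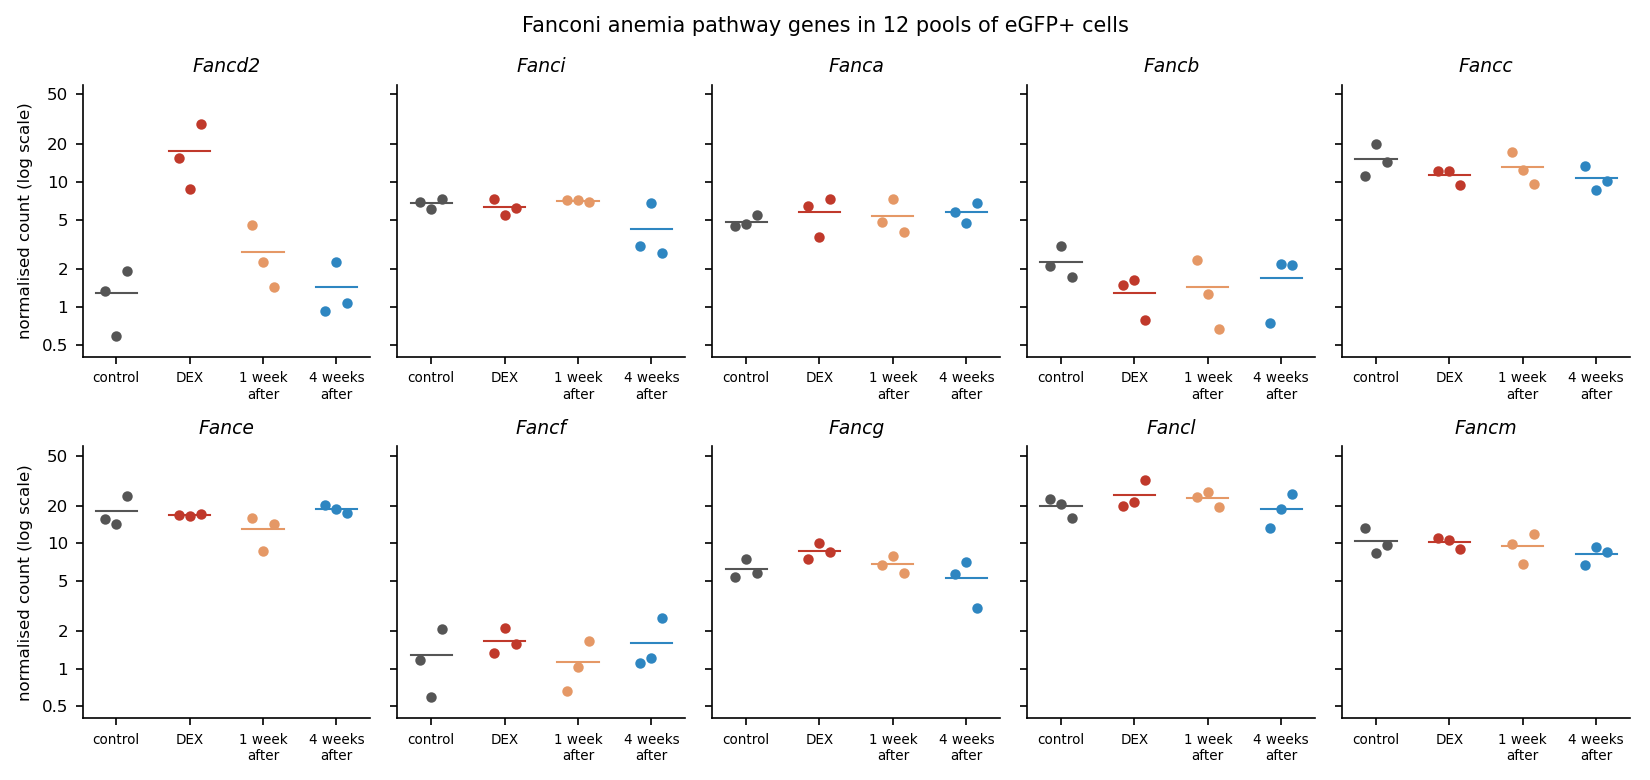
Normalised counts (log axis) of the 10 Fanconi anemia pathway genes in each of 3 pools (points) of the control, DEX, 1 week and 4 weeks groups, with the group mean as a line. *Fancd2* lies between 8.83 and 29.2 in the DEX pools and between 0.589 and 4.56 in all other pools. No other gene has every DEX pool above every control pool, although *Fanci*, *Fancb*, *Fancg* and *Fance* have some groups that do not overlap.

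Group means of *Fancd2* (normalised counts ± SD, n = 3 pools) were 1.29 ± 0.685 for control and 17.8 ± 10.4 for DEX, and after withdrawal 2.77 ± 1.61 at 1 week and 1.44 ± 0.752 at 4 weeks. The DEX mean was 13.7-fold the control mean, and the means at 1 week and 4 weeks were 2.14-fold and 1.11-fold of it. On the log2(value + 0.1) scale the difference of DEX from control was 3.65 ± 0.60 (SE), the 23rd highest of the 24736 genes tested. The difference was 1.03 ± 0.60 at 1 week and 0.17 ± 0.60 at 4 weeks. Against DEX, the difference was -2.63 ± 0.60 at 1 week and -3.48 ± 0.60 at 4 weeks. In order of mean level the groups ran DEX, 1 week, 4 weeks, control. The DEX pools did not overlap with any other group, whereas the control, 1 week and 4 weeks pools overlapped with each other.

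The pools of the DEX group differed among themselves by 3.3 times. The 1 week group was also uneven, since its first pool at 4.56 lay above all 6 pools of the control and 4 weeks groups while the other 2 pools, at 2.29 and 1.45, lay within their range. Only the comparison of 4 weeks with 1 week contained no library that chose the gene. There *Fancd2* differed by -0.86 ± 0.60 (95% interval -2.13 to 0.42), which did not pass the test (limma, adjusted p = 1, n = 3 pools a group). A fall of the size seen in the means was thus not separable from the spread of the pools.

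By the test across all genes (limma, adjusted p under 0.05), 1 of the 10 genes was called in DEX minus control, *Fancd2*, where 0.121% of all genes were called. This is the contrast that chose the gene, so nothing is read from the count. It fell to 0 without control pool 1, 2 or 3, DEX pool 1 or DEX pool 3, each of which left a group with 2 pools. The contrasts of the withdrawal groups with DEX hold the same DEX pools, so the *Fancd2* calls in them are also part of the choice and nothing is read from them. In 4 weeks minus DEX *Fancd2* was the 1 gene called, with 0.873% of all genes called, and that count was 0 without DEX pool 1 or 3 or without 4 weeks pool 1 or 3. In 1 week minus DEX 0 of the 10 were called by limma, with 0.433% of all genes called. There 1 gene, *Fancd2*, was called by DESeq2 and by either test of edgeR when run on whole reads, as it was by limma without 1 week pool 1. In 1 week minus control, 4 weeks minus control and 4 weeks minus 1 week limma called 0 of the 10 and 0% of all genes.

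*Fanci*, whose protein pairs with FANCD2 and is marked with it, did not share the DEX values of *Fancd2*. Its normalised counts were 6.92, 6.13 and 7.28 in control and 7.29, 5.48 and 6.17 in DEX. They were 7.22, 7.14 and 6.89 at 1 week and 3.05, 6.79 and 2.71 at 4 weeks. The DEX and control pools overlapped, with a difference of -0.11 ± 0.38 (log2, SE, n = 3 pools; 95% interval -0.91 to 0.69).

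At 4 weeks every *Fanci* pool lay below every 1 week pool, and 2 of the 3 lay below all other libraries. The log2 difference of 4 weeks was -0.80 ± 0.38 from control (limma, adjusted p = 0.785), -0.70 ± 0.38 from DEX (adjusted p = 0.604) and -0.87 ± 0.38 from 1 week (adjusted p = 0.863), so none passed the test. Without 4 weeks pool 2, the one pool near the control level, these differences were -1.21, -1.10 and -1.27, and they did not pass either. The group of 3 pools at 4 weeks thus held low and near-control values side by side.

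The ratio of the pair also shifted. Per kb of exon, *Fancd2* was 0.0699 to 0.195 times *Fanci* in the control pools and 1.17 to 3.44 times *Fanci* in the DEX pools. It was 0.153 to 0.459 times *Fanci* at 1 week and 0.220 to 0.291 times at 4 weeks. All 3 pools at 4 weeks lay narrowly above all control pools in this ratio (lowest 0.220 against highest 0.195), although their *Fancd2* levels overlapped. *Fanci* was low in 4 weeks pools 1 and 3, and *Fancd2* rested on 5 to 18 reads per control pool and 10 to 21 per 4 weeks pool. The DEX and control parts of this ratio carry the values that chose the set, so nothing is read from it.

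The genes of the core complex kept overlapping levels in DEX and control, apart from *Fancb*. *Fanca* and *Fancg* encode a pair of subunits that assemble together. *Fanca* had 4.41, 4.59 and 5.44 normalised counts in control and 6.38, 3.60 and 7.29 in DEX, then 4.75, 7.26 and 4.00 at 1 week and 5.73, 4.71 and 6.77 at 4 weeks. The groups of *Fanca* overlapped throughout, and its DEX minus control difference was 0.20 ± 0.39 (log2, SE). *Fancg* had 5.35, 7.54 and 5.76 in control and 7.45, 10.1 and 8.52 in DEX, then 6.75, 7.90 and 5.78 at 1 week and 5.73, 7.12 and 3.07 at 4 weeks.

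For *Fancg* the lowest DEX pool lay just under the highest control pool, and the difference was 0.48 ± 0.37. From DEX to 4 weeks its pools no longer overlapped. That difference was -0.77 ± 0.37 (95% interval -1.55 to 0.01) and did not pass the test (limma, adjusted p = 0.508).

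*Fancb* and *Fancl* encode the catalytic module, in which FANCL is the ubiquitin ligase. *Fancb* had 2.12, 3.06 and 1.74 normalised counts in control and 1.49, 1.64 and 0.785 in DEX. It had 2.38, 1.27 and 0.667 at 1 week and 0.739, 2.19 and 2.17 at 4 weeks. The DEX pools of *Fancb* all lay below the control pools, with a difference of -0.80 ± 0.61 (log2, SE; 95% interval -2.10 to 0.49), on 6 to 27 reads per library. *Fancl*, the most abundant of the 10 in control per kb of exon, had 22.5, 20.6 and 16.1 in control and 19.96, 21.3 and 31.8 in DEX. It had 23.3, 25.7 and 19.6 at 1 week and 13.2, 18.7 and 24.7 at 4 weeks. Its groups overlapped throughout, and DEX differed from control by 0.28 ± 0.29.

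*Fancc*, *Fance* and *Fancf* encode the subunits that bridge the core complex to FANCD2. *Fancc* had 11.1, 20.1 and 14.5 normalised counts in control and 12.2, 12.2 and 9.42 in DEX, with 17.4, 12.5 and 9.67 at 1 week and 13.5, 8.65 and 10.1 at 4 weeks. Its DEX and control pools overlapped, with a difference of -0.40 ± 0.32 (log2, SE). *Fancf* was the least abundant of these 3, with 1.18, 0.589 and 2.07 in control and 1.33, 2.13 and 1.57 in DEX. It had 0.665, 1.020 and 1.67 at 1 week and 1.11, 1.20 and 2.53 at 4 weeks. *Fancf* rested on 5 to 28 reads per library, all its groups overlapped, and its DEX difference was 0.49 ± 0.60.

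*Fance* had 15.7, 14.4 and 23.9 normalised counts in control and 16.7, 16.6 and 17.3 in DEX. It had 15.9, 8.67 and 14.2 at 1 week and 20.2, 18.7 and 17.5 at 4 weeks. Its 1 week pools all lay below the DEX pools, and its 4 weeks pools all lay above both. The control pools overlapped with each of the 3 other groups. The log2 difference of 4 weeks from 1 week was 0.58 ± 0.29 (95% interval -0.04 to 1.20) and did not pass the test (limma, adjusted p = 0.945).

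*Fancm*, the DNA translocase that anchors the complex, had 13.3, 8.36 and 9.68 normalised counts in control and 11.02, 10.7 and 9.08 in DEX. It had 9.89, 6.88 and 11.9 at 1 week and 6.74, 9.30 and 8.48 at 4 weeks. All groups overlapped, and the DEX minus control difference was 0.00 ± 0.32 (log2, SE; 95% interval -0.67 to 0.67). The intervals of the 9 other genes in DEX minus control had bounds from -2.10 to 1.77, all below the fitted 3.65 of *Fancd2*. The set was chosen by that *Fancd2* difference, so nothing is read from its place above them.

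**Figure D2:**
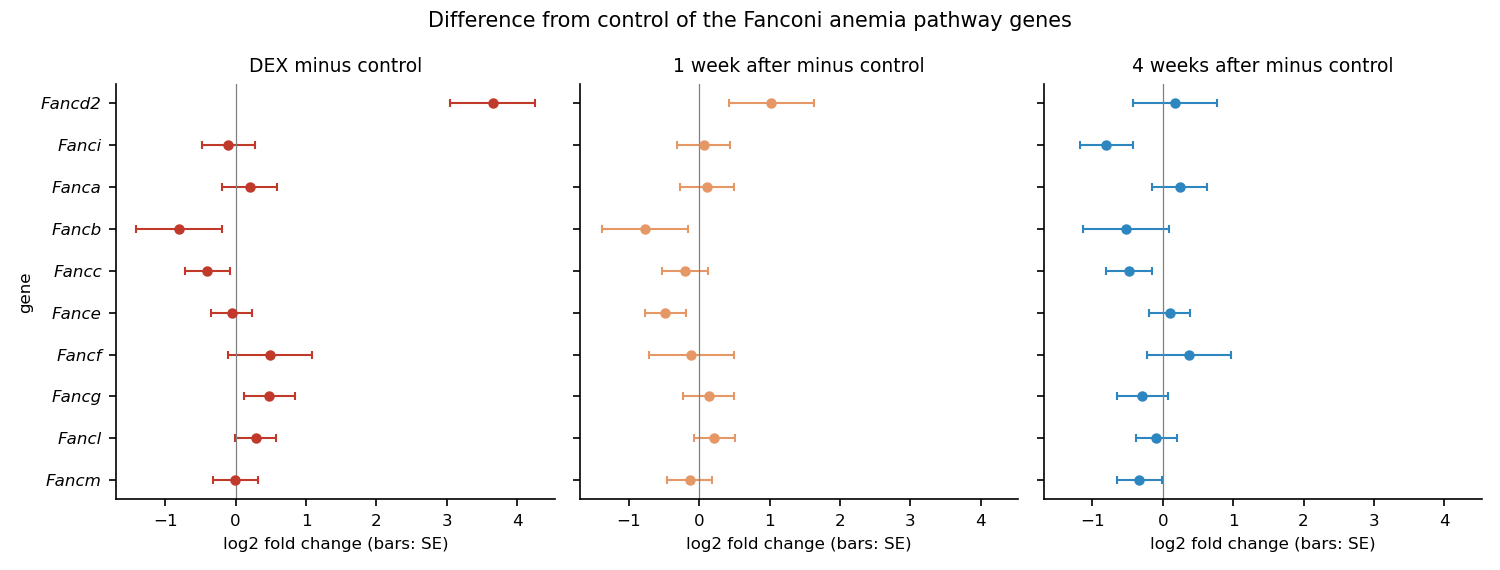
Log2 fold change from control (points) with its standard error (bars) of the 10 genes in DEX, 1 week and 4 weeks after withdrawal, 3 pools a group. In DEX *Fancd2* sits at 3.65 and the other 9 genes between -0.80 and 0.49.

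As a list, the 9 other genes had 0 calls by limma, by both edgeR tests and by DESeq2 in each of the 6 contrasts. At an unadjusted p under 0.05, limma gave 1 gene in 4 weeks minus control and 1 in 4 weeks minus 1 week, *Fanci* both times, and 0 in the other contrasts. Over all genes 6.35% and 5.47% passed in those 2 contrasts, so 1 of 9 is near the background. In DEX minus control 4 of the 9 had a positive difference, with a median of 0.00 on the log2 scale against -0.02 over all genes. The median was -0.11 at 1 week, against 0.00 over all genes, and -0.29 at 4 weeks, against 0.00.

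Counted by pools that do not overlap, 2 of the 10 genes separated in DEX minus control, *Fancd2* upward and *Fancb* downward, where 12.8% of all genes did so in either direction. In both 1 week minus control (background 6.08%) and 4 weeks minus control (13.2%), 0 of the 10 separated. In 1 week minus DEX 2 of 10 separated, *Fancd2* and *Fance*, both lower at 1 week (background 13.8%). In 4 weeks minus DEX 3 of 10 separated, with *Fancd2* and *Fancg* lower and *Fance* higher at 4 weeks (19.5%). In 4 weeks minus 1 week *Fanci* was lower and *Fance* higher (8.92%). Since 3 pools against 3 cannot give an exact permutation p below 0.1, separation of single genes was not tested further.

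Because *Fancd2* has 7937 bases of exon, its level was also set against the other genes per kb of exon. In control the order of mean levels (normalised counts per kb) ran *Fancl* 5.85, *Fance* 5.64, *Fancc* 1.82, *Fancg* 1.64, *Fanci* 1.17, *Fancm* 1.00, *Fancb* 0.774, *Fancf* 0.756, *Fanca* 0.549 and *Fancd2* 0.163. *Fancd2* was thus the lowest of the 10, and it was so in each of the 3 control pools. In DEX its mean was 2.24 per kb, close to *Fancg* at 2.29 and under *Fancl* at 7.22 and *Fance* at 5.28. By pool it ranked 4, 6 and 3 of 10 in DEX. After withdrawal it was the lowest again in 5 of the 6 pools, and ranked 8 in 1 week pool 1.

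**Figure D3:**
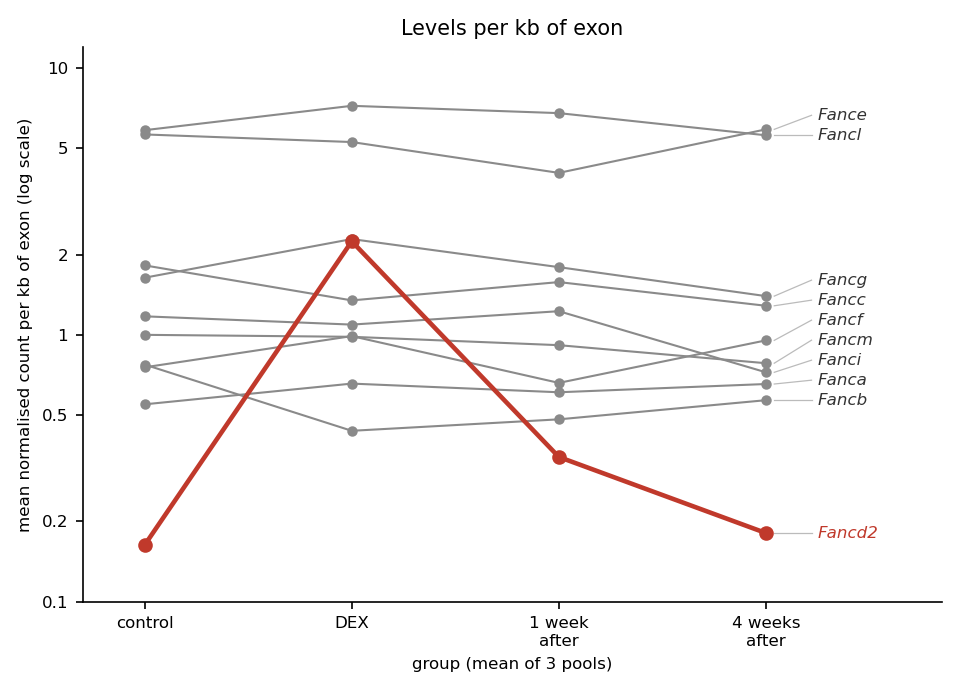
Mean normalised count per kb of exon (log axis, mean of 3 pools) of the 10 genes in the 4 groups, with *Fancd2* in red. *Fancd2* moves from 0.163 in control to 2.24 in DEX and back to 0.349 and 0.181, whereas *Fancl* and *Fance* stay above the other genes in every group.

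Of the summed normalised counts of the 10 genes, *Fancd2* made up 0.685% to 2.21% in control pools and 9.55% to 24.1% in DEX pools. Its share was 1.91% to 4.92% at 1 week and 1.30% to 2.88% at 4 weeks. The sum of the 9 other genes ran from 82.6 to 86.4 in control and from 83.6 to 92.0 in DEX. It ran from 74.4 to 88.2 at 1 week and from 70.0 to 78.0 at 4 weeks, where every pool lay below every control pool. At 4 weeks the summed stem and folliculostellate markers were above every control pool (113.1 to 147.5, against 60.9 to 99.7). So were the summed mesenchymal (181 to 295, against 96.5 to 155) and endothelial markers (75.3 to 142, against 6.77 to 64.2). In the stem and folliculostellate list *Aldh1a2* carried the rise, with means of 43.0 in control and 91.5 at 4 weeks. *Sox9* (26.4 and 27.6), *Sox2* (5.17 and 7.05) and *S100b* (0.131 and 0.0730) had 4 weeks pools that overlapped with control. The other hormone markers stood at 244914 to 393246 at 4 weeks, against 113884 to 308510. Their part in the 4 weeks values of this sum and of *Fanci* was not tested.

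*Fancd2* lies at chr6:113531682-113597017 on the plus strand of GRCm38. Its start is 30 bases from that of *Emc3*, which runs the other way and encodes a subunit of a membrane protein insertase of the endoplasmic reticulum. *Emc3* had 61.5, 61.0 and 56.5 normalised counts in control and 64.3, 62.2 and 82.3 in DEX. Its DEX pools all lay above the control pools, but the difference was 0.21 ± 0.22 (log2, SE; 95% interval -0.26 to 0.68; limma, adjusted p = 0.906). The next gene beyond *Emc3*, *Prrt3*, had 24.1, 24.5 and 27.0 in control and 45.0, 26.2 and 69.2 in DEX, with a difference of 0.78 ± 0.38 (limma, adjusted p = 0.741). *Brk1*, downstream of *Fancd2*, differed by 0.03 ± 0.25 (limma, adjusted p = 0.995).

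The gene *Fancd2os* (chr6:113596761-113600715, minus strand), whose window is printed above, shares 257 exon bases with the end of *Fancd2*. It held 2, 0 and 0 reads in the control pools and 11, 5 and 15 in the DEX pools. It held 2, 0 and 0 reads at 1 week and 2, 0 and 2 at 4 weeks. Its DEX reads followed the order of *Fancd2* in the DEX pools, with pool 3 highest and pool 2 lowest. The library kit does not mark strand while the reads were counted with a strand setting, so reads in the shared bases cannot be assigned to either gene. How many reads lay in the shared bases was not analysed here.

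Other genes of the set share exon bases with opposite-strand genes too, and their values carry the same limit. The shared stretch was 921 bases for *Fanci* with *Polg*, 920 for *Fanca* with *Zfp276*, 462 for *Fancl* with *Vrk2* and 253 for *Fancf* with *Gas2*. It was 1373 bases for *Fancc* with *Gm16133* and 575 for *Fancm* with *Gm47870*.

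Genes that work with the 10 were examined through lists of 40 genes drawn up by role, all of them tested. In each of the 6 contrasts limma called 0 of the 40, and the number at an unadjusted p under 0.05 was 2 in DEX minus control, 1 in 1 week minus control, 2 in 4 weeks minus control, 3 in 1 week minus DEX, 2 in 4 weeks minus DEX and 0 in 4 weeks minus 1 week. Over all genes the shares passing were 6.80%, 3.79%, 6.35%, 10.8%, 9.94% and 5.47% in the same order. The list had 5%, 2.5%, 5%, 7.5%, 5% and 0%, which on 40 genes is near the background. Over all genes limma called at most 0.873%, in 4 weeks minus DEX, so 0 of 40 is near the background too. edgeR's quasi-likelihood test and DESeq2 called 0 of the 40 in every contrast. Their highest counts over all 24736 genes were 214 and 655, in 4 weeks minus DEX. edgeR's likelihood ratio test called 1, *Brip1*, in 1 week minus DEX. That is 2.5% of the list, near the 2.87% of all genes that this test called there. In DEX minus control the median log2 difference was 0.19, with 29 of the 40 positive, against a median of -0.02 over all genes.

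Among 12 other genes that carry a FANC name or cause the disease, 8 were higher and 4 lower in DEX by their fitted values, with a median of 0.28. *Brca1*, a recombination factor, had the highest difference, 1.10 ± 0.64 (log2, SE), with 1.81, 0.353 and 0.544 normalised counts in control and 1.33, 2.37 and 1.46 in DEX. *Brip1*, a helicase that binds BRCA1, had the lowest, and held 3, 0 and 7 reads in control and 1, 1 and 0 in DEX. It held 19, 3 and 11 reads at 1 week and 9, 7 and 7 at 4 weeks, all above the DEX pools. At 2 reads in all DEX pools together, no fold is given for *Brip1*. *Rfwd3*, a ubiquitin ligase of the repair step, was the one of the 12 whose DEX pools (17.0 to 19.0) lay above all control pools (5.33 to 15.5). It was named for this after its values were seen. Over all genes 12.8% separated in DEX minus control in either direction, so 1 of 12 is near the background. *Rfwd3* had 18.8 to 19.8 at 4 weeks as well, and neither difference passed the test (limma, adjusted p = 0.726 and 0.754).

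Of the 5 partners of the core complex, the fitted DEX difference was highest for *Faap24* (0.24 ± 0.37) and lowest for *Cenpx* (-0.41 ± 0.31), histone fold or DNA-binding partners of FANCM, on the log2 scale with SE. Of the 4 regulators and nucleases, it was highest for *Wdr48* (0.36 ± 0.26), the cofactor of the enzyme USP1 that removes ubiquitin from FANCD2, and lowest for the nuclease gene *Fan1* (-0.27 ± 0.38). Neither list had a call in any contrast by limma.

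The 14 lesion repair partners had 11 positive and 3 negative fitted values in DEX, with a median of 0.21. *Rpa2*, a subunit of the protein that coats single-stranded DNA, had the highest, with 23.5, 20.3 and 17.6 normalised counts in control and 33.2, 26.6 and 40.7 in DEX. The DEX and control pools of *Rpa2* did not overlap, as for 12.8% of all genes in either direction. Its difference of 0.70 ± 0.27 did not pass the test (limma, adjusted p = 0.595). The lowest was *Ercc1*, a nuclease subunit, at -0.38 ± 0.28. Of 5 checkpoint genes the highest was *Topbp1* (0.51 ± 0.39) and the lowest *Chek1* (-0.69 ± 0.50), the activator and the effector kinase of the ATR pathway.

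**Figure D4:**
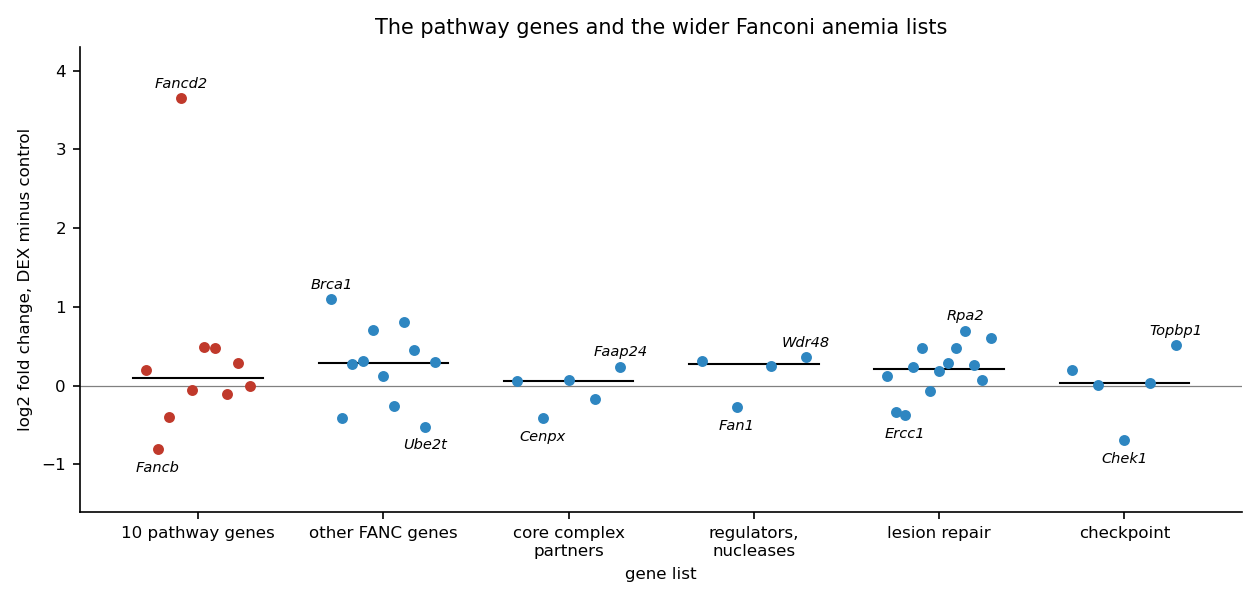
Log2 fold change of DEX minus control (points) of the 10 pathway genes and of 38 genes in 5 wider lists, with the median of each whole list as a line and its highest and lowest plotted gene named. *Brip1* and *Poln*, with 3 reads or fewer over the pools of DEX or control, are left out, *Fancd2* lies at 3.65, and the 38 genes lie between -0.69 and 1.10.

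*Fancd2* is best known as an S phase gene, so 15 cell cycle genes were set beside it. In DEX minus control 7 had positive and 8 negative fitted differences, with a median of -0.23. limma, both edgeR tests and DESeq2 called 0 of them, and limma gave 0 at an unadjusted p under 0.05. Over all 24736 genes limma called 30, edgeR's quasi-likelihood test 42, its likelihood ratio test 272 and DESeq2 190. At an unadjusted p under 0.05 limma passed 6.8% of all genes, so 0 of 15 is near the background. *Mki67*, the proliferation antigen and the lowest in fold (-1.28 ± 0.92, log2, SE), had 0.629, 0.353 and 1.41 normalised counts in control and 0.248, 0.899 and 0 in DEX. *Bub1*, a mitotic checkpoint kinase and the highest in fitted fold, held 0, 0 and 1 reads in control and 6, 0 and 1 in DEX, too few for a fold. *Pcna*, the replication clamp, had 52.5, 50.7 and 38.6 in control and 50.4, 47.3 and 43.8 in DEX. No gene of this list passed the test as higher in the DEX pools in which *Fancd2* was high. Counted by pools that do not overlap, 1 gene lay higher in DEX than in control, *Mcm6*. Its means were 18.3 in control and 24.7 in DEX, with a difference of 0.45 ± 0.36. In the same count 1 gene lay lower, *Top2a*, and 12.8% of all genes separated in either direction.

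One week after withdrawal 12 of the 15 cell cycle genes were above control by their fitted values, with a median of 1.51. limma called 0 and gave 7 at an unadjusted p under 0.05, edgeR's quasi-likelihood test and DESeq2 called 0, and edgeR's likelihood ratio test called 3. Over all genes 3.79% passed at an unadjusted p under 0.05 and 0.206% were called by the likelihood ratio test. *Top2a*, the topoisomerase of dividing cells, had 0.865, 1.18 and 1.41 normalised counts in the control pools and 0.497, 0.245 and 0.673 in the DEX pools. After withdrawal it had 14.4, 6.25 and 2.89 at 1 week and 1.48, 4.71 and 3.79 at 4 weeks. It was the 1 gene of the 15 that limma called in any contrast, with 3.58 ± 0.64 in 1 week minus DEX (limma, adjusted p = 0.0191). There limma called 0.433% of all genes. In that contrast edgeR's quasi-likelihood test called 3 of the 15, its likelihood ratio test 6 and DESeq2 5. Over all 24736 genes these tests called 136, 710 and 573. The first 1 week pool, highest in *Top2a* (14.4) and *Mki67* (6.75), was also the one with the highest *Fancd2* outside DEX (4.56). Whether dividing cells contributed to *Fancd2* in that pool was not tested.

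*Tbx19*, the transcription factor that defines corticotrophs, had 459, 229 and 218 normalised counts in control and 769, 498 and 1490 in DEX. It had 282, 385 and 39.5 at 1 week and 166, 94.4 and 188 at 4 weeks. The DEX pools of *Tbx19* lay above all other pools and in the same order as those of *Fancd2*, and its difference from control was 1.55 ± 0.65 (log2, SE), smaller than that of *Fancd2*. Per 100 normalised counts of *Tbx19*, a ratio chosen after these values were seen, *Fancd2* stood at 0.291, 0.257 and 0.898 in control and at 2.002, 1.77 and 1.96 in DEX. It stood at 1.62, 0.596 and 3.66 at 1 week and at 0.556, 2.44 and 0.576 at 4 weeks. The DEX pools lay above the control pools in this ratio too, but 1 pool at 1 week and 1 at 4 weeks lay above them. The part that the share of corticotrophs in a pool played in *Fancd2* was not tested.

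**Figure D5:**
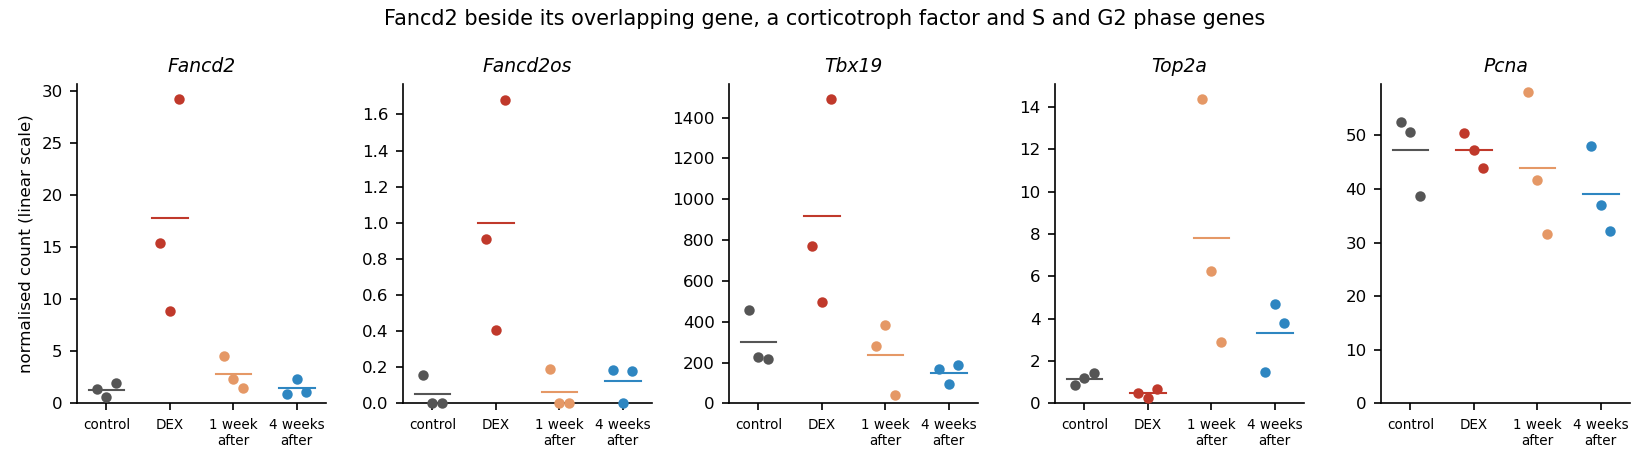
Normalised counts (linear axes, each gene on its own scale) in each pool (points) with group means (lines) of *Fancd2*, *Fancd2os*, *Tbx19*, *Top2a* and *Pcna*. *Fancd2*, *Fancd2os* and *Tbx19* are highest in the 3 DEX pools, *Top2a* is highest at 1 week and *Pcna* overlaps in all groups.

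Markers of other cells were set beside these values as summed normalised counts. The 6 endothelial markers summed to 6.77 to 64.2 in control and 2.98 to 8.42 in DEX, and to 24.7 to 162 and 75.3 to 142 at 1 and 4 weeks. The 7 mesenchymal markers summed to 96.5 to 155 in control and 77.3 to 119 in DEX, and to 87.4 to 230 and 181 to 295 after withdrawal. The 5 erythroid markers summed to 0.979 to 16.02 in control and 1.06 to 1.23 in DEX, then 1.11 to 10.6 and 4.62 to 49.6. The 6 macrophage markers summed to 18.1 to 20.1 and 13.7 to 17.7, then 25.9 to 43.8 and 17.8 to 42.4. The 5 B cell markers, of which 4 were tested, summed to 5.30 to 7.94 in control and 6.73 to 10.5 in DEX, then 5.89 to 22.7 and 6.28 to 11.2. The 3 melanotroph markers, among them *Pax7* with 0 in 7 of the 12 libraries, summed to 45.9 to 68.3 and 39.7 to 59.9, then 51.7 to 150.01 and 58.2 to 75.8. The 4 stem and folliculostellate markers summed to 60.9 to 99.7 in control and 58.6 to 71.0 in DEX. They summed to 60.3 to 77.8 at 1 week and 113.1 to 147.5 at 4 weeks, where most of the sum was *Aldh1a2* (mean 91.5). Apart from the B cell list, whose sum followed *Cd79b*, no list had a DEX pool above the highest control pool. The part of these cells in the *Fancd2* values was not tested.

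The genes whose pattern over the 12 libraries was most like that of *Fancd2* were found by Pearson's r of log2(value + 0.1) among 15756 genes with a mean above 1. They were *Lingo3* (r = 0.942), *Plb1* (0.937), *Mthfd2* (0.928), *Chn1* (0.919), *4833405L11Rik* (0.919), *Fstl3* (0.914), *Dcaf4* (0.914), *Cpne4* (0.913), *Plek2* (0.912) and *Csad* (0.908). The r is a description over 12 libraries that fall into one high and several low groups. Like *Fancd2*, *Mthfd2*, a mitochondrial folate enzyme gene, was highest in DEX pool 3 (208) and lowest of the DEX pools in pool 2 (78.2), with 36.1 to 54.8 in control. *Plb1*, a phospholipase gene, had 0 in every control pool and 8.99 to 15.9 in DEX. None of the 10 was a gene of the Fanconi anemia lists. With only 10 taken from 15756 genes, nothing is read from this.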

How the data were processed

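RNA from sorted eGFP+ cells of 12 pools (4 groups of 3) was amplified (SMART-V4 kit) and sequenced. The authors trimmed reads with Trim Galore 0.6.5, aligned them to GRCm38 (Ensembl release 98) with STAR 2.7.1a and counted pairs of mapping quality 20 or more with featureCounts 2.0.0 in reverse-stranded mode. What the authors deposited is a normalised signal for each gene, the CPM of the TMM-scaled library size by edgeR, with column sums of 823964 to 1423897, where plain CPM had been assumed in the design. The limma test was kept. Divided by the value of 1 read, all 271881 positive values (100%) came out as whole reads, within 6.29e-09.

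Genes above 0.1 in at least 3 libraries (24736) were fitted as log2(value + 0.1) with limma 3.58.1 (R 4.3.3, eBayes with trend), all 12 libraries in 1 model, and p-values were adjusted by Benjamini-Hochberg over all genes within each contrast. A fold change on this scale understates the change of low genes. The p-values measure the spread between pools. edgeR 4.0.16 and DESeq2 1.42.0 were run on the recovered reads. The fit was tested on simulated data. Intervals are 95% intervals of the model. No 2 libraries of a group were alike within counting noise (chi-square per gene 16.1 or more).

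The members and lists were chosen with earlier results of these data known. Named were all 10 members, in each list any gene called and the highest and lowest DEX fold, the 10 genes most like *Fancd2* and its neighbours. Levels per kb used GENCODE M21 exon lengths. Sequences are from RefSeq.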

Additional observations from a re-analysis of the deposited data

How the results depend on the processing

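The count of the 10 genes called in DEX minus control was 1 and ranged from 0 to 1 when each library was left out. In 4 weeks minus DEX it was 1 and ranged from 0 to 1. In 1 week minus DEX it was 0, ranged from 0 to 1 when each library was left out, and was 1 with a pseudocount of 1, edgeR's quasi-likelihood test, edgeR's likelihood ratio test or DESeq2. The count of the 40 wider genes in 1 week minus DEX was 0, and 1 by edgeR's likelihood ratio test, which called 2.87% of all genes. The cause was not tested. Over all alternatives the DEX minus control difference of *Fancd2* ran from 2.93 to 4.07, and its 4 weeks minus control difference from -0.27 to 0.52. Of the 9 other genes, *Fance* and *Fancm* changed the sign of their small DEX difference in 1 and 2 of 21 alternatives.

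Over all genes, limma called 30 in DEX minus control, edgeR's quasi-likelihood test 42, its likelihood ratio test 272 and DESeq2 190, with 49 and 54 at pseudocounts of 0.5 and 1 and 2 to 66 when a library was left out. In 1 week minus DEX the counts were 107, 136, 710 and 573, with 7 to 201 when a library was left out. In 4 weeks minus DEX they were 216, 214, 664 and 655, with 19 to 402. In 1 week minus control they were 0, 1, 51 and 8, in 4 weeks minus control 0, 0, 93 and 60, and in 4 weeks minus 1 week 0, 0, 165 and 15.

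Pools with the same number are from different mice. Their deviations from the group means correlated at -0.29 to 0.40 (over 0.1 in 7 of 18 pairs). Pools with different numbers correlated at -0.27 to 0.38 (over 0.1 in 7 of 36 pairs). The main fit did not pair the pools, and whether the numbers pair them was not tested. With the replicate block, 1 of the 10 genes was called in DEX minus control, as without it, and 34 genes in place of 30 over the whole table. *Fancb* and *Fancf* rested on 5 to 28 reads per library, which limits the differences that could be detected for them.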
